A study of Homo sapiens with 3 samples.

Results

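The genes described here build the contacts between epithelial cells: cadherins, catenins and nectins of adherens junctions, desmosomal cadherins and plakophilins, claudins and their partners in tight junctions, connexins of gap junctions, and the 2 epithelial splicing regulators ESRP1 and ESRP2. They were a list of 38 gene symbols, and a gene's measurements were all probe sets of the array that name that gene and no other in the platform annotation. Of the 38 genes, 36 had such a probe set, out of 18132 genes in all, and together they had 105 probe sets. CTNND1 was represented only by probe sets that also name a read-through gene, and F11R by none here, so neither has a value. The cells were FaDu, an established line from a squamous cell carcinoma of the hypopharynx, grown in RPMI medium with fetal calf serum. In 1 sample they were exposed for 48 h to 10 µg/ml of NSC-631570, a preparation from greater celandine (Chelidonium majus), at the dose the study's design calls its EC50. The 2 untreated samples received distilled water for the same time. Each sample gave 1 PrimeView array, so there were 2 untreated arrays and 1 treated array, and the question was how the preparation changed RNA levels. No label says whether the untreated samples came from separate cultures. P-values therefore measure the spread between these arrays, which may be technical, and the spread of the treated condition was not measured. In such bulk RNA, fewer cells of a kind and less RNA per cell cannot be told apart.

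Adherens junctions hold neighbouring epithelial cells together through classical cadherins, whose cytoplasmic tails bind beta- and p120-catenin, while alpha-catenin ties the complex to actin; nectins and afadin form a second adhesion system beside them. Desmosomes use desmogleins and desmocollins, linked by plakoglobin, plakophilins and desmoplakin to keratin filaments, and give squamous epithelia their strength. Tight junctions seal the space between cells with claudins, occludin and other tetraspan proteins on scaffolds such as ZO-1, and gap junctions are channels of connexins. Beta-catenin and plakoglobin are also known outside junctions, beta-catenin as the transcriptional effector of Wnt signalling.

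The arrays were close in overall signal, with medians over all 49395 probe sets of 6.62 and 6.57 untreated and 6.55 treated (log2 signal). Each gene was taken by its brightest probe set, and genes under a log2 signal of 5.85, which 40% of probe sets do not reach, were not tested, which left 11932 genes. The median tested gene lay 0.12 above the untreated mean, so differences of the members are to be read against that shift. Control probe sets placed along single transcripts differed by position in the treated array. The 5′ probe set of ACTB was 2.59-fold lower there and that of GAPDH 1.39-fold, while their 3′ probe sets stood at log2 differences of 0.20 and −0.01. The 7 epithelial markers with a value (KRT5, KRT14, KRT8, KRT18, KRT19, SFN and LAMB3) were all past the filter. Their summed log2 signal was 15.88 in untreated 1, 16.06 in untreated 2 and 15.74 after treatment. The brightest of them in the untreated arrays was KRT18, at 13.96, 14.21 and 13.09 in the same order. Of these, 3 lay above both untreated arrays and 4 below both, from KRT14 at 0.95 to KRT18 at −0.99, and none passed the test. Of 12 mesenchymal and fibroblast markers 4 were past the filter. The summed log2 signal of that list stood at 9.67 in untreated 1, 10.39 in untreated 2 and 9.67 after treatment. VIM (4.52, 4.73 and 5.10) was below the filter and CDH2, neural cadherin, above it. The summed signals of 6 endothelial markers (8.94, 8.93 and 8.85) and 5 leukocyte markers (8.21, 7.74 and 8.41) are given in the order untreated 1, untreated 2, treated. The defining leukocyte marker PTPRC stood at 3.72, 3.72 and 3.78, below the filter, while all 3 tested leukocyte markers lay above both untreated arrays, CD14 by the most (7.03, 6.17 and 7.42). The part of these markers in the results was not tested.

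Of the junction genes, 33 were tested and none passed limma's threshold of 0.05 after Benjamini-Hochberg adjustment over all genes; among all tested genes it called 0.0419% higher and 0.0251% lower. At an unadjusted p under 0.05, limma counted 7 members higher and 0 lower, where all tested genes gave 12.2% and 2.25%. By a rule of size with no test, 4 members lay at least 1.5-fold above both untreated arrays (5.84% of all tested genes) and 0 at least 1.5-fold below both (1.23%). The 4 were GJB5, NECTIN4, GJB2 and CLDN12. The treated array lay above both untreated arrays for 19 members (51.7% of all tested genes) and below both for 4 (22.5%), and within the untreated range for 10. The median log2 difference of the members was 0.15, beside 0.12 for all tested genes. The untreated arrays themselves were at least 1.5-fold apart for 5 members, against 6.94% of all tested genes, with a median gap of 0.22 (0.18 over all tested genes). For 16 of the 33 members the difference from the untreated mean was smaller than the gap between the untreated arrays. The same count over all tested genes was not made. These counts hold for the brightest probe sets; for several genes the dimmer probe sets read differently, as given gene by gene. When a gene's probe sets were averaged instead, 1 member was at least 1.5-fold above both untreated arrays (GJB5) and 1 below (CTNNB1). After the medians of the tested genes were made equal between arrays, 2 were above (GJB5 and NECTIN4) and none below. The share of all tested genes was not counted under either setting.

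**Figure D1:**
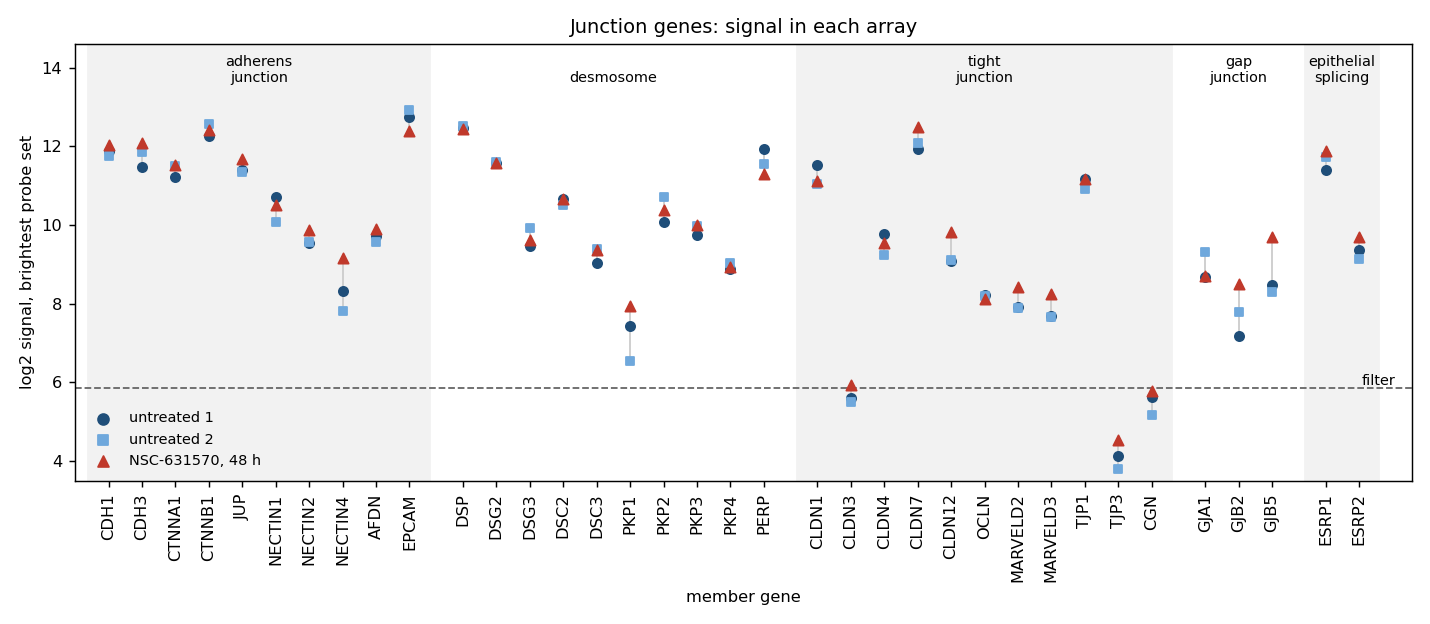
Log2 signal of the brightest probe set of each of the 36 junction genes with a value, by junction class, in untreated 1 (circles), untreated 2 (squares) and the NSC-631570 array (triangles); the dashed line is the filter at 5.85. Most triangles lie within or close to the untreated pair, while GJB5, NECTIN4, GJB2 and CLDN12 stand clear above it and the means of CLDN3, TJP3 and CGN lie below the filter.

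Among the 3 connexin genes, GJB5 and GJB2 were higher in the treated array and GJA1 was not. GJB5, which encodes a beta connexin, a gap junction protein of stratified epithelia, had a log2 signal of 8.48 and 8.31 untreated and 9.70 treated. The groups did not overlap, and the treated signal was 2.47-fold above the untreated mean (log2 difference 1.30 ± 0.22, SE from limma, n = 2 untreated and 1 treated array; adjusted p = 0.0884 by limma). Among the members' brightest probe sets it was the largest difference and the nearest to the threshold. Across the alternative settings its adjusted p lay between 0.00231 and 0.167, and it passed when array medians over all probe sets were equalised and when each gene was taken by its median probe set. GJB5 had a single probe set, so no second reading was at hand. Its values were therefore unchanged under the median probe set, and the lower adjusted p there came from the fit over the other genes. GJB2, which encodes a beta connexin, a channel protein raised in hyperproliferative epidermis, read 7.17 and 7.79 untreated and 8.50 treated. Its difference was 1.02 ± 0.29 (2.03-fold, adjusted p = 0.177 by limma), with untreated arrays 0.62 apart. A second GJB2 probe set read 6.83, 7.56 and 8.07, in the same order of arrays, but the remaining one (6.44, 6.77 and 6.59) stayed within the untreated range. GJA1, which encodes the most widely expressed connexin, read 8.68, 9.31 and 8.71, so that the treated value lay inside the untreated pair. A dimmer GJA1 probe set read 6.19 and 6.20 untreated and 5.58 treated, which is below both. The 2 remaining GJA1 probe sets were below the filter.

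Promoter windows, the 250 bases before the transcription start, were taken from RefSeq (GRCh38.p14) for members at least 1.5-fold above both untreated arrays and for CTNNB1, whose probe sets parted most; 26 of the 38 members had an entry, and GJB5 was not among them. The windows are those of NECTIN4 (chr1:161089559-161089808, minus strand), GJB2 (chr13:20192939-20193188, minus strand), CLDN12 (chr7:90403211-90403460, plus strand) and CTNNB1 (chr3:41199255-41199504, plus strand). Each is printed 5′ to 3′ in the direction of its gene, and capitals mark a match to any of 3 motifs searched on both strands: the E-box CACCTG, a form bound by SNAI and ZEB repressors, the core GCGTG of the xenobiotic response element read by the aryl hydrocarbon receptor, and the AP-1 site TGANTCA.
NECTIN4: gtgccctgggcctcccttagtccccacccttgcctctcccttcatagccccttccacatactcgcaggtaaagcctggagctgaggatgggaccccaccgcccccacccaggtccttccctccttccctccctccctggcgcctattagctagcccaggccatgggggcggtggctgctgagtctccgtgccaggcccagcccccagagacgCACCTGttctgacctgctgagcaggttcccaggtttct
GJB2: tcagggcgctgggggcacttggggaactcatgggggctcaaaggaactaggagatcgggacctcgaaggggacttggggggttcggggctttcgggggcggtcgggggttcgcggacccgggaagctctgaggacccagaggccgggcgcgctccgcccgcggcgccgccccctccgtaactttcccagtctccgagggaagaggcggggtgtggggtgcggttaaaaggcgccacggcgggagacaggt
CLDN12: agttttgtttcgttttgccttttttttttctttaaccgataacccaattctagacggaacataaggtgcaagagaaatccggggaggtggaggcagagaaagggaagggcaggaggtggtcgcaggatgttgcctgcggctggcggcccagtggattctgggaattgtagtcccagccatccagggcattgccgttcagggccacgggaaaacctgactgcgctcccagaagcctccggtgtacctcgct
CTNNB1: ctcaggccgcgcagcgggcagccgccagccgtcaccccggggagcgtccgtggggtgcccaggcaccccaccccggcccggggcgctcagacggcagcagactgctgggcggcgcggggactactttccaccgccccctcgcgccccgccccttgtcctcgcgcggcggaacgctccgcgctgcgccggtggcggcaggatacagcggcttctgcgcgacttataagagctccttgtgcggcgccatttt
NECTIN4 held 1 match, a CACCTG starting 38 bases before the start, and the windows of GJB2, CLDN12 and CTNNB1 held no match to these letters. Over all 35116 windows in the table, 17.5% held CACCTG, 32.2% GCGTG and 6.57% TGANTCA. Of the 38 windows of members, some genes having several, 28.9%, 34.2% and 7.89% did. The GC content was 65.2% for NECTIN4, 70.0% for GJB2, 54.4% for CLDN12 and 74.4% for CTNNB1, beside a median of 67.6% over the windows of members and 58.0% over all. A match is a description of the letters and shows no binding.

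Of the 10 tested adherens junction genes, none passed the test; 7 lay above both untreated arrays, 1 below both and 2 within the untreated range, beside 51.7% above and 22.5% below over all tested genes. The class had a median log2 difference of 0.24, beside 0.12 over all tested genes. NECTIN4, an immunoglobulin-like adhesion molecule found at high level in several carcinomas, read 8.33 and 7.82 untreated and 9.15 treated. The groups did not overlap, and the difference was 1.08 ± 0.27 (2.11-fold, n = 2 and 1; adjusted p = 0.148 by limma). Its other probe sets did not share this: 1 stood at 0.16 and 1 at −0.24, both with treated values inside or at the edge of the untreated pair. NECTIN2, a relative of NECTIN4, read 9.53 and 9.58 against 9.88 in the treated array, a difference of 0.33, and its dimmer probe set stood at 0.0065. NECTIN1 (10.72, 10.07 and 10.52) lay within the untreated range, and its other probe sets past the filter stood at 0.09 and −0.21. AFDN, which encodes the scaffold afadin that binds nectins, read 9.71 and 9.56 against 9.91; its other probe sets past the filter stood at 0.38 and −0.42.

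The classical cadherin genes were slightly higher by their brightest probe sets. CDH1, which encodes E-cadherin, read 11.89 and 11.77 untreated and 12.03 treated, a difference of 0.21 ± 0.22 (adjusted p = 0.755 by limma). CDH3, which encodes P-cadherin of basal epithelial layers, read 11.47 and 11.85 against 12.07 (0.41 ± 0.24, adjusted p = 0.501 by limma), and its dimmer probe set, at −0.06, lay within the untreated range. The other probe set of CDH1 was far dimmer and read 7.33 and 7.01 untreated but 5.85 treated. That probe set fell by 1.33 on the log2 scale (SE 0.24, 2.51-fold lower; adjusted p = 0.0339 by limma over all probe sets one by one), to the level of the filter, and so opposed the brighter one. JUP, which encodes plakoglobin, the catenin shared by adherens junctions and desmosomes, read 11.40 and 11.36 against 11.68 (0.30 ± 0.21) on its single probe set. CTNNA1, which encodes alpha-catenin, read 11.22, 11.51 and 11.52 by its brightest probe set, and its 5 others past the filter ranged from −0.41 to 0.24.

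CTNNB1, which encodes beta-catenin, gave the largest disagreement among members. Its brightest probe set read 12.25 and 12.57 untreated and 12.41 treated, a difference of 0.0026 ± 0.23. All 7 other probe sets fell, by differences of −1.13 to −1.93 (2.19-fold to 3.81-fold; adjusted p from 0.0106 to 0.0439 by limma over probe sets one by one). The next brightest read 11.99 and 11.93 against 10.80, and the one that fell furthest read 10.47 and 10.84 against 8.72. For none of the 7 did the groups overlap, and the untreated arrays were at most 0.37 apart. The 7 are no independent readings: the platform annotation ties them to 4 cDNA sequences, and 4 of them carry the suffix that marks possible cross-hybridisation, while it ties the brightest to a RefSeq mRNA. Taken as the mean of its probe sets CTNNB1 differed by −1.43 (adjusted p = 0.106 by limma), and by their median by −1.82 (adjusted p = 9.64e-05). As for GJB5, the adjusted p by the median probe set also depends on the fit over the other genes. It rests, too, on readings that are not independent. Where each probe set lies along the transcript was not used here, so the part of the lower 5′ control signals in the disagreement between CTNNB1 probe sets was not tested.

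**Figure D2:**
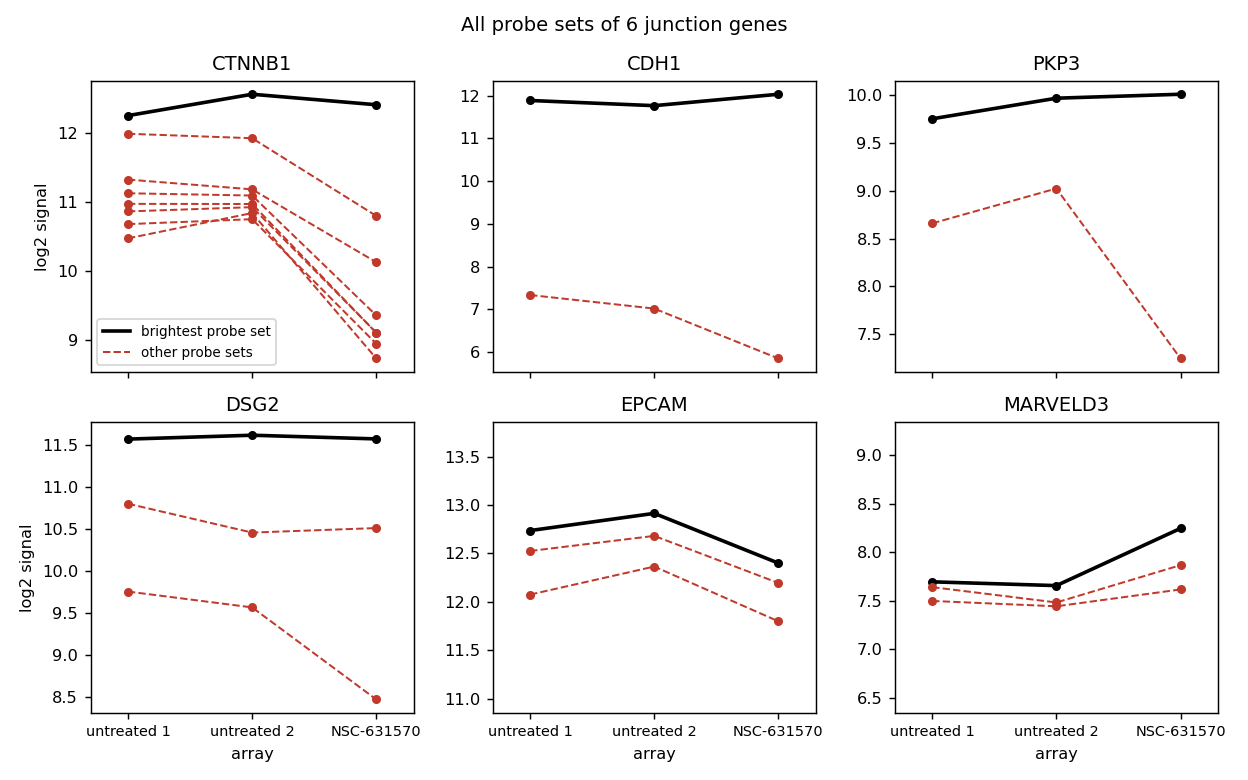
Log2 signal of every probe set of CTNNB1, CDH1, PKP3, DSG2, EPCAM and MARVELD3 in the 3 arrays, with the brightest probe set as a solid black line and the others dashed. In CTNNB1 the brightest probe set is level while the 7 others drop in the NSC-631570 array; in EPCAM and MARVELD3 all 3 probe sets move the same way. The vertical scales differ between panels.

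EPCAM, which encodes an epithelial adhesion molecule known to associate with claudin-7, was the member whose probe sets were most alike in their differences, among the 29 with at least 2 past the filter. Its brightest probe set read 12.74 and 12.91 untreated and 12.40 treated, and the 2 others read 12.53 and 12.68 against 12.20, and 12.08 and 12.37 against 11.80. On each of the 3 the treated array lay below both untreated arrays, by differences of −0.41 to −0.42 (1.33-fold to 1.34-fold lower). The limma test of the brightest gave −0.42 ± 0.22 with an adjusted p = 0.438, so the difference did not pass.

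Of the 10 desmosomal genes, read by their brightest probe sets, none passed the test. The treated array lay above both untreated arrays for 3 of them, below both for 2 and within their range for 5, beside 51.7% above and 22.5% below over all tested genes. The median log2 difference was −0.02, beside 0.12 over all tested genes. Among the desmosomal cadherins, DSG2, which encodes the desmoglein of simple and basal epithelia, read 11.57 and 11.61 untreated and 11.57 treated. DSG3, the desmoglein of basal squamous layers and the main antigen of pemphigus vulgaris, read 9.46, 9.93 and 9.61. DSC2 read 10.65, 10.52 and 10.67, and DSC3 9.05, 9.38 and 9.36. For DSG2, DSG3 and DSC3 the treated value lay inside the untreated pair, and for DSC2 it stood 0.02 above the higher one. For each desmoglein, 1 dimmer probe set read below both untreated arrays. A DSG2 probe set fell by 1.19 (SE 0.23; 9.75 and 9.56 untreated, 8.47 treated), while another DSG2 probe set (10.80, 10.45 and 10.51) stayed within the untreated range. The second DSG3 probe set read 8.89 and 9.39 untreated and 8.42 treated, a difference of −0.72. The 4 other DSC2 probe sets past the filter had a median of −0.16, and the 2 others of DSC3 stood at 0.15 and −0.14.

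DSP, which encodes desmoplakin, the link to keratin filaments, read 12.46 and 12.51 untreated and 12.45 treated, with its second probe set at −0.26. PKP1, the plakophilin of suprabasal squamous layers, had the largest difference among the brightest probe sets of the class: 7.43 and 6.54 untreated, 7.93 treated (0.94 ± 0.35, 1.92-fold, adjusted p = 0.272 by limma). The untreated arrays were 0.89 apart in PKP1, and the difference was 0.50 from untreated 1 and 1.39 from untreated 2. Its other probe sets, at 0.53 and 0.47, were on the same side, and all 3 treated values lay above both untreated ones. PKP2 (10.09, 10.70 and 10.37) and PKP4 (8.87, 9.03 and 8.94), plakophilins of simple epithelia and of adherens junctions as well, lay within the untreated range. The second probe set of PKP2 stood at −0.05, and the 3 others of PKP4 ranged from −0.54 to 0.30. PKP3, a plakophilin present in most layers of stratified epithelium, read 9.75 and 9.97 against 10.01 by its brightest probe set. Its second probe set read 8.66 and 9.02 untreated and 7.24 treated and fell by 1.60 (SE 0.25, 3.03-fold lower). PERP, a p53 target and tetraspan component of desmosomes, read 11.93 and 11.55 untreated and 11.31 treated (−0.43 ± 0.24, adjusted p = 0.475 by limma). A second PERP probe set stood at −0.39 and the remaining one, dimmer by far, at 0.56.

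Of the 8 tested tight junction genes, none passed the test; 5 lay above both untreated arrays, 1 below both and 2 within the untreated range, which is near the 51.7% above and 22.5% below over all tested genes. The median log2 difference was 0.30, beside 0.12 over all tested genes. CLDN12, a claudin that lacks the usual PDZ-binding end, read 9.09 and 9.10 untreated and 9.81 treated (0.72 ± 0.21, 1.65-fold, adjusted p = 0.192 by limma). Its dimmer probe set read 7.04, 6.64 and 6.58, a difference of −0.26. CLDN7, a claudin of many simple and squamous epithelia, read 11.94 and 12.09 against 12.50 (0.48 ± 0.22, 1.40-fold, adjusted p = 0.370 by limma) on its single probe set. The groups did not overlap in either gene by the brightest probe set, but CLDN12 rests on a probe set that its companion opposed. CLDN1, a barrier claudin of epidermis, read 11.52, 11.05 and 11.11, and on all 4 of its probe sets the treated value lay inside the untreated pair. CLDN4, a receptor of a clostridial toxin, read 9.78, 9.23 and 9.55, inside the pair as well, while its dimmest probe set stood at −0.55, below both.

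MARVELD2, which encodes tricellulin, the protein of corners where cells meet, read 7.91 and 7.89 untreated and 8.43 treated (0.53 ± 0.21, adjusted p = 0.313 by limma). MARVELD3, a relative of occludin, read 7.69 and 7.66 against 8.25 (0.57 ± 0.21, adjusted p = 0.280 by limma). In both genes the untreated arrays were less than 0.04 apart and the treated array lay above them. The 2 other probe sets of MARVELD3 stood at 0.31 and 0.15, also above both untreated arrays, whereas the second MARVELD2 probe set past the filter stood at −0.21, below both. OCLN, which encodes occludin, read 8.23 and 8.20 against 8.12, and its second probe set stood at −0.40. TJP1, which encodes the scaffold ZO-1, read 11.16, 10.92 and 11.16, with its second probe set at −0.40. CLDN3 (5.62, 5.51 and 5.93), TJP3 (4.14, 3.80 and 4.53), which encodes ZO-3, and CGN (5.64, 5.16 and 5.77), which encodes the scaffold cingulin, had mean signals below the filter and were not tested. No detection call was at hand, so these 3 cannot be said to be above background.

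ESRP1 and ESRP2 encode RNA-binding proteins that keep epithelial splice forms, such as those of FGFR2 and CD44. ESRP1 read 11.40 and 11.72 untreated and 11.88 treated (0.32 ± 0.24, adjusted p = 0.618 by limma), with its second probe set at 0.26. ESRP2 read 9.35 and 9.14 against 9.69 (0.45 ± 0.22, adjusted p = 0.419 by limma) on 1 probe set. All 3 probe sets of the pair had treated values above both untreated arrays, and none passed the test.

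**Figure D3:**
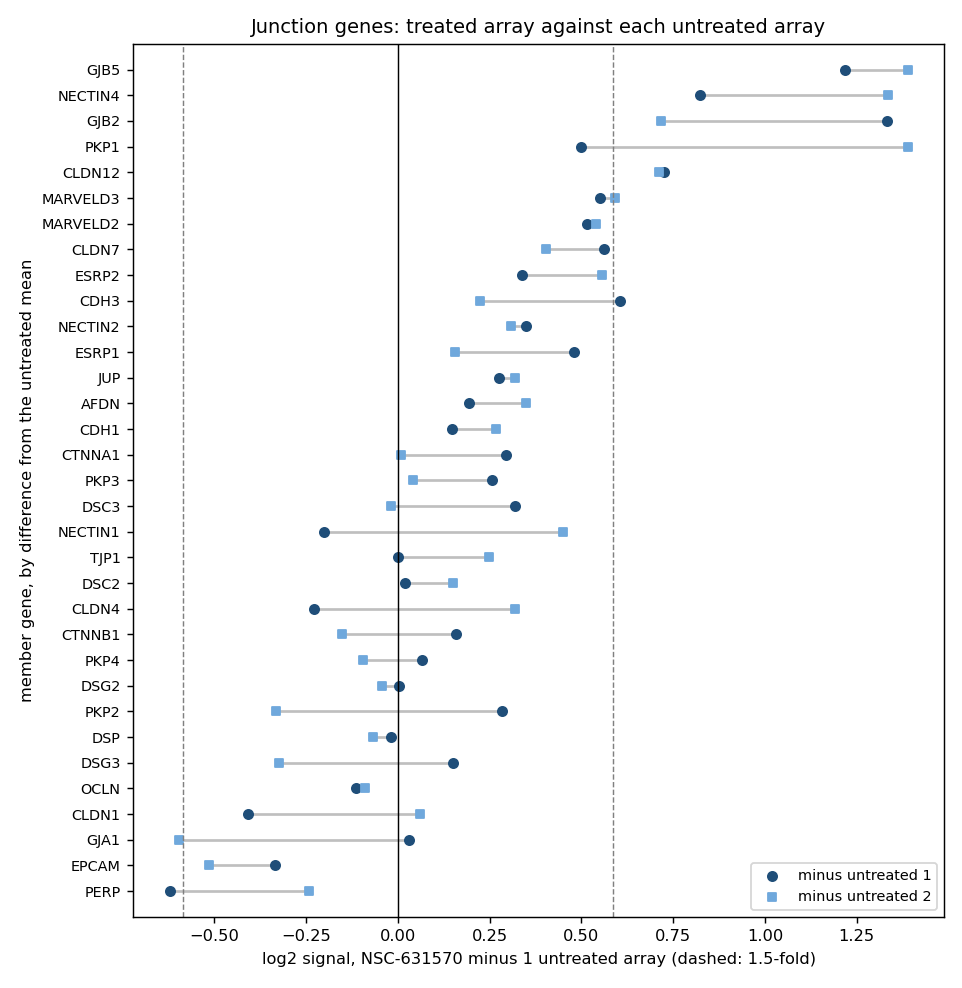
Log2 signal of the treated array minus untreated 1 (circles) and minus untreated 2 (squares) for the brightest probe set of the 33 tested members, ordered by the difference from the untreated mean; dashed lines mark 1.5-fold. Both points of GJB5, NECTIN4, GJB2 and CLDN12 lie beyond the upper line, and no member has both beyond the lower one.

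Read one by one, 90 probe sets of the members were past the filter, and the test over all 27255 such probe sets gave another picture from the brightest ones alone. Limma with Benjamini-Hochberg adjustment called 10 member probe sets lower and 1 higher, where it called 2.37% and 0.55% of all probe sets. The 10 were the 7 of CTNNB1 (adjusted p from 0.0106 to 0.0439) and 1 each of PKP3 (0.0205), CDH1 (0.0339) and DSG2 (0.0398), so 4 genes stand behind them. The 1 higher was that of GJB5 (adjusted p = 0.0296). After quantile normalisation 6 lower calls were left, 5 of CTNNB1 and that of PKP3, and none higher, where all probe sets gave 1.45% lower and 0.209% higher. By size alone, 11 member probe sets were at least 1.5-fold below both untreated arrays and 4 at least 1.5-fold above (6.77% and 4.15% of all probe sets). The treated array lay below both untreated arrays on 36 member probe sets and above both on 30, beside 34.5% and 40.7% of all.

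All 10 lower calls were of probe sets other than a gene's brightest. The brightest was chosen by the mean over all 3 arrays, so a probe set that reads lower in the treated array is less likely to be chosen. The comparisons of brightest and other probe sets given here carry this choice. By the rule of size, which is not the test, 11 member probe sets were at least 1.5-fold below both untreated arrays, and 0 of these were a gene's brightest. Over all genes the same rule gave 1845 probe sets, and 147 of these were a gene's brightest. The share of brightest ones among all lower calls was not counted. Whether the absence of brightest probe sets among the calls is particular to the members was therefore not tested. Of 57 member probe sets past the filter that were not a gene's brightest, 39 were below the untreated mean, beside 55.4% over all genes. Their median was −0.21, beside −0.05 over all genes. Among 29 members with at least 2 probe sets past the filter, 6 had a probe set at least 1 log2 unit below their brightest in its difference: CTNNB1, PKP3, CDH1, NECTIN4, DSG2 and GJB2. Of all 7125 genes with 2 or more such probe sets, 12.2% had one at least 1 unit below the brightest and 0.758% one at least 1 unit above; none of the members had the latter. By class, 17 of 33 adherens junction, 20 of 29 desmosome, 9 of 19 tight junction and 3 of 6 gap junction probe sets were below the untreated mean. All 3 of the ESRP genes were above it. Over all genes, 12553 of 27255 probe sets were below it. The 17 include the 7 dimmer ones of CTNNB1, and probe sets of the same gene are no independent readings.

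**Figure D4:**
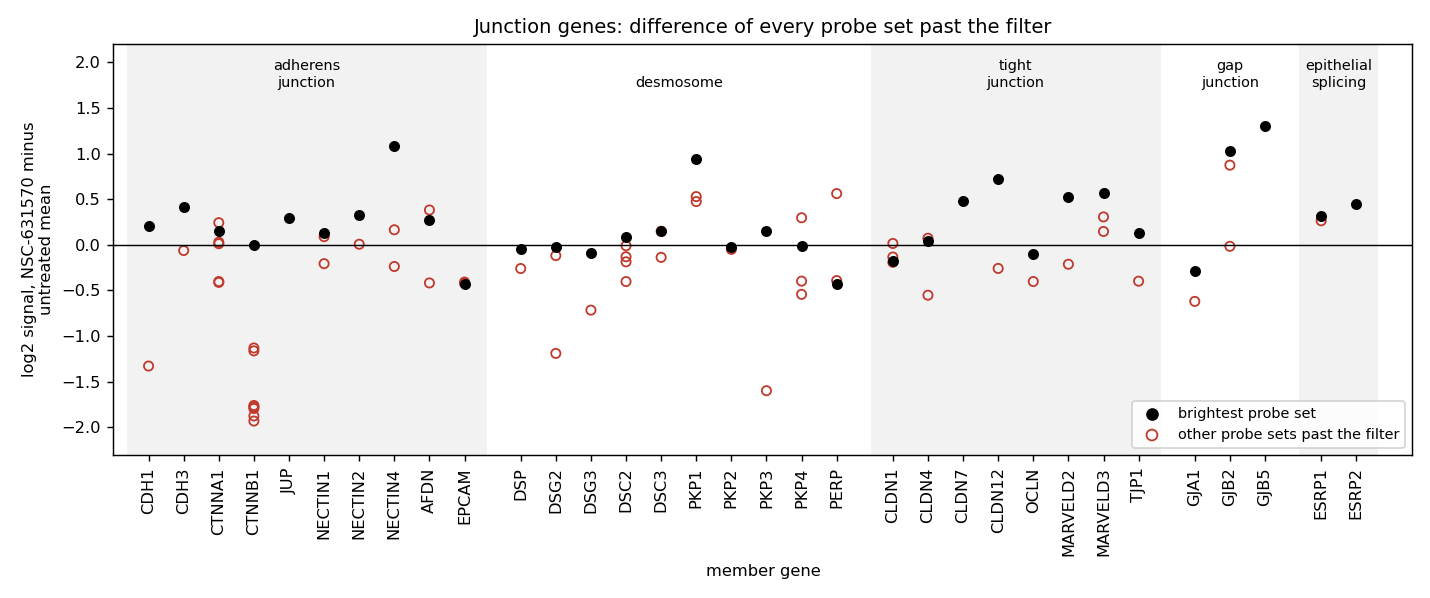
Difference of the treated array from the untreated mean (log2 signal) for each of the 90 member probe sets past the filter, by gene and junction class, with the brightest probe set of each gene filled. The open points of CTNNB1, PKP3, CDH1 and DSG2 reach below −1.1 while their filled points lie between −0.02 and 0.21.

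Further genes were taken from 5 lists with 96 symbols. Of these lists 1, with 19 symbols, held regulators of the epithelial state, and the rest held other genes of the same structures. Of the 96 symbols 83 had a value, and 55 genes, 14 of them regulators, were tested. None passed limma's threshold; 9 were higher and 1 lower at an unadjusted p under 0.05 by limma, near the 12.2% and 2.25% of all tested genes. Their median log2 difference was 0.13, beside 0.12 over all tested genes. Among 23 further tight junction genes 13 lay above both untreated arrays and 8 below both, beside 51.7% and 22.5% of all tested genes. CLDN23, another claudin, read 5.82 and 6.03 untreated and 6.99 treated (1.06 ± 0.22, adjusted p = 0.124 by limma), and PARD6A, a polarity adaptor, read 7.23 and 6.96 against 8.07 (0.97 ± 0.23, adjusted p = 0.136 by limma). PRKCI, the atypical protein kinase C of the same polarity complex, read 11.40 and 11.49 against 10.67 (−0.78), but its other probe set stood at 0.18. SYMPK stood at 0.61 and its other probe set at −0.50. Of these, CLDN23 and PARD6A had a single probe set past the filter.

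Among 10 further adherens junction genes the actin-binding LIMA1 stood at 0.61 (11.08 and 11.28 untreated, 11.79 treated), the nectin-like receptor PVR at 0.47 and the catenin-family ARVCF at 0.27. CDH2 read 8.51 and 9.78 untreated and 8.27 treated (−0.87), a gene in which the untreated arrays were 1.27 apart. Its other probe set past the filter stood at −1.26. Of 4 tested plakin genes, EVPL (envoplakin) stood at 0.51, PLEC (plectin) at 0.20, PPL (periplakin) at 0.07 and DST at −0.02, and 3 other PPL probe sets had a median of −1.38. Of 4 further channel genes, PANX2 (0.89) and PANX1 (0.52), which encode pannexins, lay above both untreated arrays by their brightest probe sets, while 3 other PANX2 probe sets had a median of −0.05 and the other of PANX1 stood at −0.26. The treated values of GJC1 (0.03) and GJC3 (−0.0010) lay within the untreated range. Among 14 regulators of the epithelial state, EHF stood at 0.65, TWIST2 at 0.54, OVOL1 at 0.50 and ELF3 at −0.65, with 6 other EHF probe sets at a median of −0.53. As with the members, companion probe sets of CDH2, PPL, EHF and PVR (median −0.53 for PVR), among others, read lower than the brightest. That of PRKCI read higher.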

How the data were processed

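Per the labels' protocols, 100 ng of FaDu RNA per sample was amplified and biotin-labelled. What the authors deposited is a log2 signal for each probe set, produced in Affymetrix Expression Console per the submitters' processing notes; the sources used here do not give the algorithm, the version or the normalization. That scale was read from the values. No detection call could be made, and 3 arrays limit the precision.

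The platform annotation, with symbols updated through RefSeq (GRCh38.p14), named 1 gene for 44994 of 49395 probe sets, several for 1832 and none for 2473 (array controls with no gene are counted in none of these; 102 probe sets in all are array controls, a few of which name a gene). Probe sets of several genes were left out. Each gene's brightest probe set (highest mean over the arrays) entered limma 3.58.1 (R 4.3.3), over 11932 genes with Benjamini-Hochberg adjustment. The fit has 1 residual degree of freedom, from the untreated pair, and 6.95 prior ones, so the treated condition is taken to vary as the untreated does. A second fit took 27255 probe sets singly. The code was tested on simulated data.

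The members, lists and motifs were chosen with earlier results of these data known. Every member is accounted for. The rule asked for values in every array for up to 12 members in each direction by distance from the nearer untreated array, members whose probe sets disagreed in sign by over 0.5, and the highest and lowest signal of each class; other members' values were added. From each further list, the 4 genes farthest from the nearer untreated array were named. Alternatives were other scalings, filters, probe set summaries and priors, limma's treat with a bound of 0.5, a 2-fold size rule and leaving out each untreated array.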

Additional observations from a re-analysis of the deposited data

How the results depend on the processing

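With only 1 treated array, leaving out an untreated array gives values with no test, and no setting supplies the missing spread of the treated condition; depth does not apply, and signal over background was not at hand. No paired analysis was possible because the treated group has 1 array and the groups share fewer than 2 replicate numbers. All 33 tested members kept their direction and side of the threshold under quantile normalisation, no filter, the intensity trend and the robust prior, as did the 32 left by the filter at the 60th percentile, which removed PKP1. The checks of probe sets one by one under other scalings, and of members outside both untreated arrays, were added after seeing the data.

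Limma called 1 member higher with equal medians over all probe sets (GJB5, 1.35, adjusted p = 0.0287), 1 with the median of probe sets (GJB5, 1.30, adjusted p = 0.00231) and 1 probe set one by one. Lower calls numbered 1 with the median of probe sets (CTNNB1) and 10 one by one. After quantile normalisation the one-by-one calls were 0 higher and 6 lower, where all probe sets gave 0.209% and 1.45%. With equal medians over tested genes they stayed at 1 and 10, where all probe sets gave 0.525% and 5.78%. At least 1.5-fold above both untreated arrays were 2 members with equal medians over tested genes, 1 with the mean and 1 with the median of probe sets, and 1 by a fold rule of 2; without 1 untreated array the count was 5 to 6. Below both, it was 1 with the mean, 1 with the median and 1 without either untreated array (GJA1 without untreated 1, PERP without untreated 2). Above both lay 12 members with equal medians over tested genes, 11 with the mean and 11 with the median, and 22 to 26 without 1 untreated array. Below both lay 11, 14 and 12, and 7 to 11. The members' median difference was −0.047, −0.063 and −0.037 in the same order, beside −0.08, 0.04 and 0.04 over all tested genes. Without untreated 1 it was 0.22, beside 0.13 over all tested genes, and without untreated 2 it was 0.26, beside 0.11. For the counts of members by size and by side under these settings, the shares of all tested genes were not counted. Those counts therefore show nothing particular to the members.

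The sign turned for 10 members with the mean of probe sets: CDH1 −0.56, CTNNA1 −0.051, CTNNB1 −1.43, NECTIN1 −0.13, AFDN −0.063, DSC2 −0.13, PKP3 −0.72, CLDN4 −0.14, MARVELD2 −0.049 and TJP1 −0.14. The median of probe sets left 31 members tested, without AFDN and GJA1. With it the sign turned for 7: CDH1 −0.56, CTNNB1 −1.82, NECTIN1 −0.059, DSC2 −0.13, PKP3 −0.72, MARVELD2 −0.21 and TJP1 −0.14. With equal medians over tested genes it turned for 8: CTNNA1 −0.045, CTNNB1 −0.19, NECTIN1 −0.072, DSC2 −0.11, DSC3 −0.048, PKP3 −0.047, CLDN4 −0.15 and TJP1 −0.072. With equal medians over all probe sets it turned for 3: DSG2 0.022, PKP2 0.019 and PKP4 0.028. For the 10 members within the untreated range, the sign also depended on which untreated array was kept. NECTIN1, for example, stood at 0.45 without untreated 1 and at −0.20 without untreated 2. The turned signs under another probe set summary come from the dimmer probe sets. Both summaries took all probe sets naming only that gene, also those under the filter. Among the members that turned, CTNNA1, NECTIN1, AFDN, DSC2 and MARVELD2 had probe sets under the filter. For the other settings the cause was not tested.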
